A study of Mus musculus with 12 samples.

Results

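The amyloid precursor protein (App), its homologues Aplp1 and Aplp2, and the secretases that cut them were followed in 12 groups of mice, each measured on 1 Agilent mouse array. The groups were mice of 4 ages and models of Alzheimer's disease or cognitive impairment, and each group is called a model below. The family was taken as 9 genes, chosen by symbol through the transcript each probe was designed for, out of 19644 named genes that remained after a filter on dim probes. Between them the 9 genes had 11 probes, with 2 each for Aph1a and Psenen and 1 for each of the other 7, and all 11 passed the filter.

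App is a single-pass membrane protein. Cleavage by the α-secretase, mainly Adam10, within the amyloid-β (Aβ) stretch sheds the large outer domain and prevents Aβ from forming. Cleavage by the β-secretase Bace1 instead leaves a stub that the γ-secretase complex cuts inside the membrane to release Aβ. The γ-secretase consists of a presenilin as the catalytic subunit, here Psen2, of nicastrin (Ncstn), which admits the substrate, of Aph1a, a scaffold, and of the presenilin enhancer Pen-2 (Psenen), which activates the presenilin. Aplp1 and Aplp2 pass through the same secretases but hold no Aβ sequence.

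The arrays formed 3 sets. The first was the prefrontal cortex of C57BL/6 mice aged 1.5, 4, 17, or 22 months. The second was the hippocampus of mice, C57BL/6 by their labels and with C57BL/6N as the normal control strain in the study's methods, that overexpressed mutated human NCSTN (10 months of age), wild-type human MAPT, the gene of the protein tau (12 months), or the 5×FAD transgenes (6 months), which include mutated human APP. The promoters of the 5×FAD transgenes are taken from the neuronal gene Thy1, and those of the NCSTN and MAPT transgenes are not given in the sources used here. The third was the hippocampus of ICR mice aged 7 weeks. These had received aggregated Aβ at 5 or 10 μM or streptozotocin, a toxic glucose analogue, at 2.5 or 3 mg/kg into the cerebral ventricles 14 days earlier, or scopolamine, a blocker of muscarinic receptors, at 1 mg/kg by intraperitoneal injection 30 minutes earlier. RNA of 3 animals was pooled for each array, so every model is 1 sample, no test between models was possible, and no p-value is given. Control arrays were not analysed here. Each level below is the log2 of the processed signal after quantile normalization over the 12 arrays, and each ratio is the log2 difference between an array and the average of its set's remaining arrays, which are 3 in cortex, 2 in the transgenic hippocampus, and 4 in the ICR hippocampus. The ratios of a gene within a set sum to 0, which forces low values elsewhere in the set for any gene that is high on 1 array. Levels of different probes cannot be compared with each other.

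Several features of the arrays bear on what follows. The methods describe all mice as male, but on the 3 transgenic arrays Xist, transcribed from the inactive X chromosome of females, had log2 levels of 8.58 to 10.45 over 2 probes, and the Y-linked genes Ddx3y and Eif2s3y were not flagged by the scanner software as well above background. On the other 9 arrays Ddx3y and Eif2s3y were well above background and Xist was not. Hippocampal markers averaged 10.66 to 11.17 on the 8 hippocampus arrays and 9.62 to 9.96 in cortex, and cortical markers averaged 9.84 to 9.91 in cortex and 7.98 to 9.02 in hippocampus. Of these markers, Spock1 went the other way, at 7.94 to 8.45 in cortex and 6.59 to 7.56 in hippocampus, and Fezf2 and Wfs1 overlapped between the regions. Markers of the choroid plexus, a tissue within the ventricles, were at least 2-fold lower on both streptozotocin arrays (5 of 5 genes on each) and higher at 17 months (4 of 5). Markers of the pituitary were at least 2-fold higher on the MAPT array (3 of 4). All 4 measured markers of activated microglia were at least 2-fold higher on the 5×FAD array.

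Precision was judged from the arrays themselves. Spots of the same bright probe (log2 level of at least 10) differed on an array by an SD of 0.038 to 0.054 log2 units, which covers spotting and scanning only. Different bright probes of 1 gene disagreed in their ratios by an SD of 0.10 to 0.35, largest on the 5×FAD array, and different dim probes by 0.41 to 0.59. This disagreement leaves out the spread between animals or pools, which 1 array per model cannot give. Of the 11 family probes, 9 were bright. The exceptions were Ncstn and the second Aph1a probe.

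The sequences upstream of 4 members are shown because App and Aplp1 varied together over the arrays and because Aph1a and Psenen were both high on the 5×FAD array. They are the 250 bases before the RefSeq start of each gene in assembly GRCm38.p6, read along the gene. App lies on the minus strand (chr16:85173708-85173957), as do Aplp1 (chr7:30445583-30445832) and Psenen (chr7:30563628-30563877, the more upstream of 2 starts), and Aph1a lies on the plus strand (chr3:95893671-95893920). Capitals mark GC boxes (GGGCGG or its complement CCGCCC) and CCAAT boxes (CCAAT or its complement ATTGG), searched on both strands.
App: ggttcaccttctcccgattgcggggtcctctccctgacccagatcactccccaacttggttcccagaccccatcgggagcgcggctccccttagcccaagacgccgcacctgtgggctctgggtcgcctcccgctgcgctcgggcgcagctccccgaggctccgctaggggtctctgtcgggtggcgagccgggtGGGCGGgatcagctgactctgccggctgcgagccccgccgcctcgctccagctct
Aplp1: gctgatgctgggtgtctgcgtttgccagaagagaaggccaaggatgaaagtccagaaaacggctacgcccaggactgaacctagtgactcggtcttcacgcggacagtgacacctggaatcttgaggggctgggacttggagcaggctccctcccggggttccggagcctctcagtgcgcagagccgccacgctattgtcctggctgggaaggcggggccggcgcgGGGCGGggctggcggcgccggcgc
Aph1a: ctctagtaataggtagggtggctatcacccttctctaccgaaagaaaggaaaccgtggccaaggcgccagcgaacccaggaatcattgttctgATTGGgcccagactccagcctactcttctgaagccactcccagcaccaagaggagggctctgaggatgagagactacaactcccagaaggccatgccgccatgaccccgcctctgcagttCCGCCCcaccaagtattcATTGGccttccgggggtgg
Psenen: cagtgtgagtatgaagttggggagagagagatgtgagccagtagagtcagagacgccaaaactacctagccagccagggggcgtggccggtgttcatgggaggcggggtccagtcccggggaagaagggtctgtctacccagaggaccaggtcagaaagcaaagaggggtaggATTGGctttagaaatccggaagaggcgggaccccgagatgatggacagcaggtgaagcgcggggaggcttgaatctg
App and Aplp1 each held 1 GC box and no CCAAT box, Aph1a held 1 GC box and 2 CCAAT boxes, and Psenen held 1 CCAAT box. A GC box was found in 32.7% and a CCAAT box in 33.8% of the 32851 mouse promoter windows of this length. No TATAAA was found in any of the 10 windows of the 8 members with an entry in the RefSeq table, against 12.4% of all windows. The App window was 70.8% G or C and that of Aplp1 66.0%, compared with 57.2% for Aph1a, 58.4% for Psenen, and a median of 52.4% over all windows. These matches describe the letters only.

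**Figure D1:**
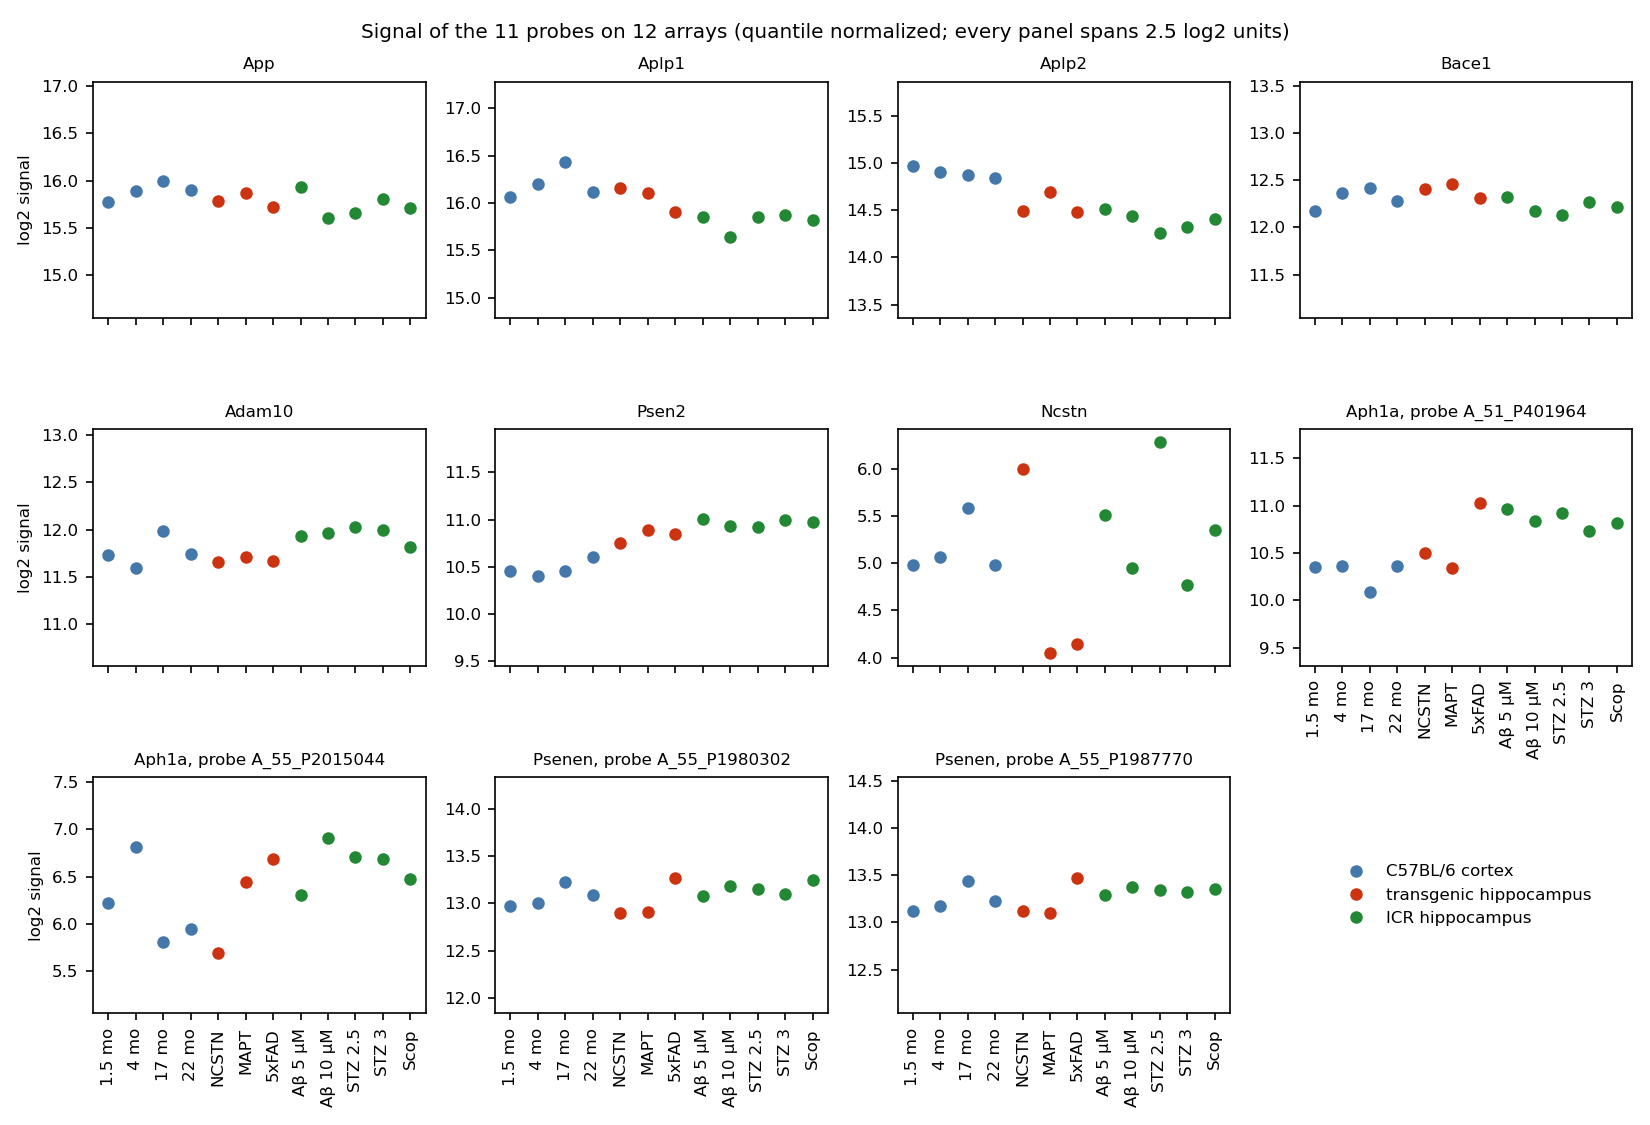
Log2 signal of the 11 probes of the 9 genes on each of the 12 arrays (x axis), after quantile normalization, with cortex in blue, transgenic hippocampus in red, and ICR hippocampus in green. Each point is 1 array of RNA pooled from 3 animals, there are no error bars, and every panel spans 2.5 log2 units so that the spread of Ncstn can be set against the narrow range of App, Bace1, and Psen2.

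The probe for App (A_55_P2012201) read log2 levels of 15.78, 15.89, 16.00, and 15.90 in cortex at 1.5, 4, 17, and 22 months. On the NCSTN, MAPT, and 5×FAD arrays it read 15.78, 15.87, and 15.72. On the ICR arrays it read 15.93 and 15.60 with 5 and 10 μM Aβ, 15.65 and 15.80 with 2.5 and 3 mg/kg streptozotocin, and 15.71 with scopolamine. The 5×FAD array was thus the lowest of the 3 transgenic arrays for App, with a ratio of -0.11, although these mice carry human APP. The range in each set, 0.22, 0.15, and 0.33 log2 units, can be set against the median range of all bright probes, which was 0.30, 0.33, and 0.24. The largest App difference among the ICR arrays lay between the doses of Aβ, where 10 μM was 0.33 lower than 5 μM. The SD of this difference over all bright probes was 0.20.

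Thy1 gave a point of comparison for the 5×FAD transgenes. Its probe read 17.41 on the 5×FAD array against 16.56 on the NCSTN and 16.58 on the MAPT array, a ratio of 0.84, and no more than 16.88 on any other array. Thy1 was thus higher on the 5×FAD array than on the other 11, whereas App was not. Whether the mouse probes bind the human transcripts was not tested, because probe sequences and human transcripts were not used here.

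Aplp1, which is largely confined to neurons, read 16.07, 16.20, 16.43, and 16.12 in cortex with increasing age. It read 16.16, 16.10, and 15.90 on the NCSTN, MAPT, and 5×FAD arrays, where 5×FAD was again the lowest, with a ratio of -0.23. On the ICR arrays it read 15.85 and 15.64 with 5 and 10 μM Aβ, 15.86 and 15.87 with streptozotocin, and 15.82 with scopolamine. Its highest ratio in cortex was 0.30, on the array of 17 months, and its lowest among the ICR arrays was -0.21, with 10 μM Aβ, where App was the lowest as well. These ratios lay within 2 SD of the disagreement between bright probes of a gene on the array of 17 months (SD 0.21) and just beyond that on the array of 10 μM Aβ (SD 0.10). Neither could be set against the spread between pools of animals.

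Aplp2, which is more widely expressed than Aplp1, read 14.97, 14.90, 14.87, and 14.84 in cortex at 1.5, 4, 17, and 22 months. This was the one member whose level was lower at each later age, but the whole range was 0.12 log2 units, and the arrays of neighbouring ages differed by less than 0.11, the smallest SD between bright probes of a gene in cortex. It read 14.49, 14.69, and 14.48 on the NCSTN, MAPT, and 5×FAD arrays, and between 14.25 (2.5 mg/kg streptozotocin) and 14.51 (5 μM Aβ) on the ICR arrays.

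Bace1 and Adam10 cut App in alternative ways. Bace1 read 12.18, 12.37, 12.42, and 12.28 in cortex by age and 12.40, 12.46, and 12.31 on the NCSTN, MAPT, and 5×FAD arrays. On the ICR arrays it read 12.32 and 12.17 with 5 and 10 μM Aβ, 12.13 and 12.26 with 2.5 and 3 mg/kg streptozotocin, and 12.22 with scopolamine. No array departed from the rest of its set by more than 0.18 log2 units. Bace1 followed App from array to array. After each set was centred on its own mean, the levels of App and Bace1 over the 12 arrays had a Pearson correlation of 0.88, the highest among the 55 pairs of family probes other than the 2 probes of Psenen (0.96). Of the 10270 bright probes other than that of App, Bace1 among them, 4 had a correlation with App at least as high as that of Bace1. The correlation was 0.87 without the transgenic arrays and lay between 0.87 and 0.92 with each array left out in turn. It was 0.70 with another background correction (normexp) and 0.78 in the matrix of values that the authors deposited, where 54 and 123 bright probes, respectively, were at least as close to App. The pair was singled out after its values were seen, the arrays of a set share their centring, and the differences are small, so the value is given as a description of these 12 arrays.

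Adam10 read 11.73, 11.59, 11.99, and 11.74 in cortex by age, with the array of 17 months highest at a ratio of 0.30. It was the steadiest member in the transgenic hippocampus, at 11.65, 11.71, and 11.67 on the NCSTN, MAPT, and 5×FAD arrays. On the ICR arrays it lay between 11.81 with scopolamine and 12.03 with 2.5 mg/kg streptozotocin. With the deposited matrix the scopolamine ratio, -0.17, became -0.57, where the median of all probes was itself -0.20.

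**Figure D2:**
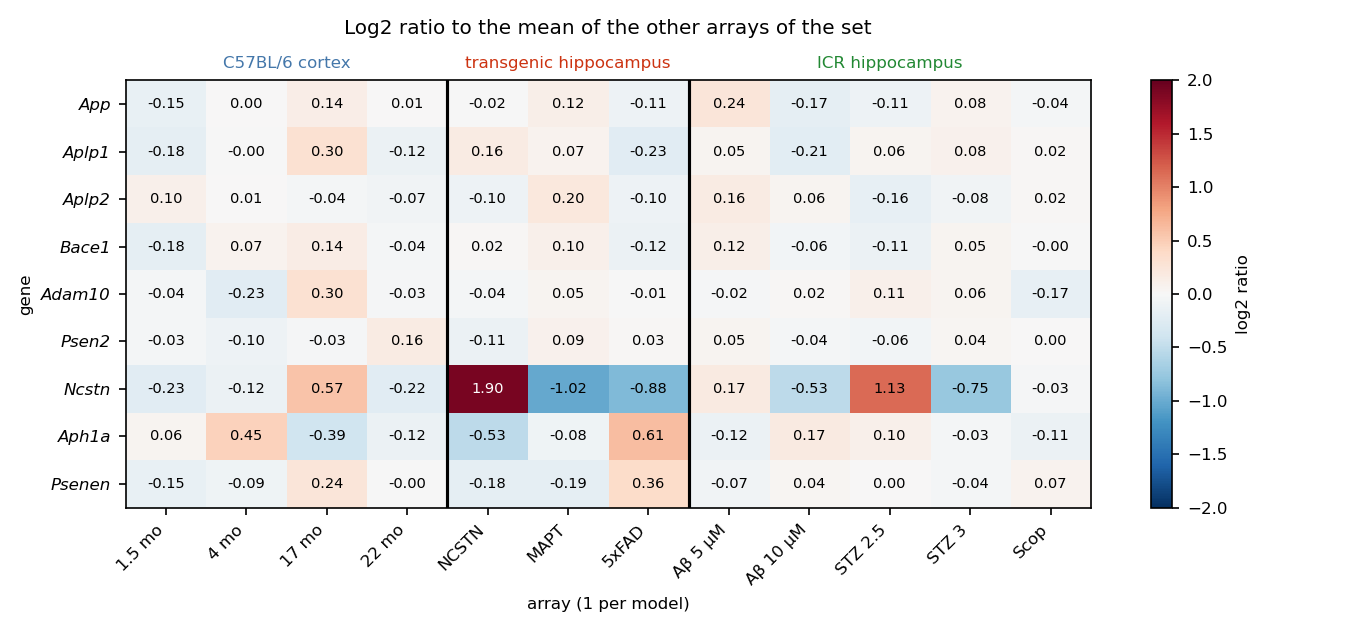
Log2 ratio of each member (rows, probes of a gene averaged) on each array (columns) to the average of the rest of its set, with red above and blue below 0 and the sets divided by black lines. Ncstn carries the values past 2-fold, 1.90 on the NCSTN, -1.02 on the MAPT, and 1.13 on the 2.5 mg/kg streptozotocin array, and the other 8 genes lie between -0.53 and 0.61.

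Among the subunits of γ-secretase, Psen2 was steady within sets. It read 10.46, 10.40, 10.46, and 10.60 in cortex by age, 10.75, 10.89, and 10.85 on the NCSTN, MAPT, and 5×FAD arrays, and 10.92 to 11.01 on the ICR arrays. The range among the 5 ICR arrays was 0.09 log2 units. The highest ratio was 0.16, at 22 months.

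Ncstn was the exception in the family. Its probe (A_51_P396643) was dim, between 2.66 and 4.86 times the local background, and it was well above background on 11 of the 12 arrays. It read 6.00 on the NCSTN array against 4.05 on the MAPT and 4.15 on the 5×FAD array. The ratio on the NCSTN array was 1.90, or 3.74-fold higher, and 0.55 with normexp background correction, where an offset is added to dim signals. Without that correction the ratios on the MAPT and 5×FAD arrays were -1.02 and -0.88. The last 2 values rest on the NCSTN array, because MAPT and 5×FAD differed from each other by only 0.10. Before normalization, the signal over local background was 4.86 on the NCSTN array, 2.79 on the MAPT array, and 3.05 on the 5×FAD array, the same order. The transgene of the NCSTN mice is human, and whether this mouse probe binds its transcript was not tested.

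Single arrays moved this probe elsewhere too. On the ICR arrays Ncstn read 5.51 and 4.95 with 5 and 10 μM Aβ, 6.28 with 2.5 mg/kg streptozotocin, 4.77 with 3 mg/kg streptozotocin, and 5.35 with scopolamine. The level of 6.28 was above that on the NCSTN array, but only after normalization. Before it, the signal over local background was 4.52 with 2.5 mg/kg streptozotocin and 4.86 on the NCSTN array. The ratio with 2.5 mg/kg was 1.13. By these levels the array was 2.85-fold higher than that of 3 mg/kg, where Ncstn was not well above background. The size of this difference depended on the processing. The ratios with 2.5 and 3 mg/kg were 0.39 and -0.30 with normexp, and 0.92 and -0.34 in the deposited matrix. In cortex it read 4.98, 5.06, 5.58, and 4.98 by age. Of the 2432 probes whose mean level lay within 0.5 log2 units of that of Ncstn, 9.87% were past 2-fold in either direction on the NCSTN array, 8.92% on the MAPT array, 21.5% on the 5×FAD array, and 10.4% on the array of 2.5 mg/kg streptozotocin. On the NCSTN array, 18 of these probes (0.74%), Ncstn itself included, had a ratio at least as high as that of Ncstn.

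**Figure D3:**
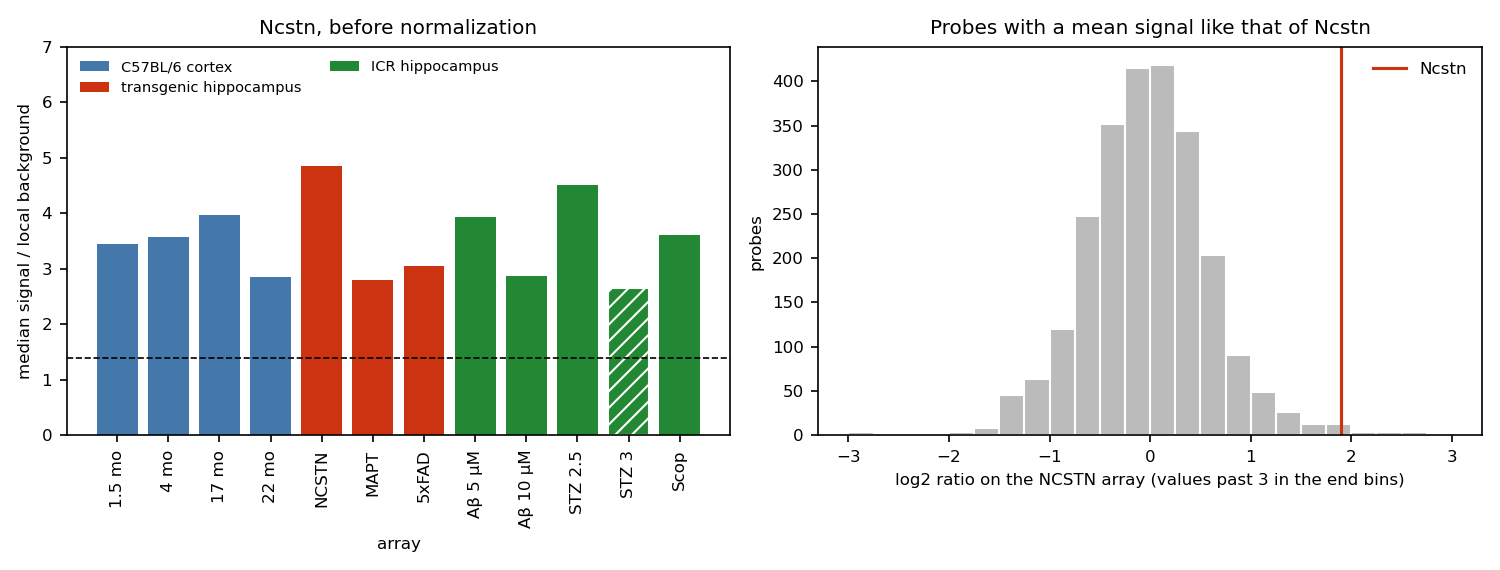
Left, median signal of the Ncstn probe over its local background on each array before normalization (bars from 0, colours as the sets, dashed line at the filter of 1.4, hatched where not well above background). Right, number of probes by log2 ratio on the NCSTN array for the 2432 probes with a mean level like that of Ncstn. The ratio of Ncstn, 1.90 (red line), is equalled or passed by 18 of them, Ncstn itself included.

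Aph1a was higher on the 5×FAD array by both of its probes, which were designed for different transcripts of the gene. The bright probe (A_51_P401964) read 10.50, 10.34, and 11.03 on the NCSTN, MAPT, and 5×FAD arrays, and the dim probe (A_55_P2015044) read 5.69, 6.44, and 6.69. Their ratios on the 5×FAD array were 0.61 and 0.62, both past 1.5-fold relative to the mean of the other transgenic arrays. The bright probe was 0.53 above NCSTN and 0.68 above MAPT. For the dim probe the step from MAPT to 5×FAD was 0.24, smaller than that from NCSTN to MAPT (0.75), so the probes gave the same highest array but a different order of the other 2. Over all bright probes the ratio on the 5×FAD array had an SD of 0.53, and bright probes of a gene disagreed there by an SD of 0.35.

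In cortex the bright Aph1a probe read 10.36, 10.36, 10.09, and 10.37 by age, and the dim probe 6.22, 6.81, 5.81, and 5.94. Both were lowest at 17 months, with ratios of -0.27 and -0.52. The dim probe was also highest at 4 months, with a ratio of 0.82 against 0.09 for the bright probe. On the ICR arrays the bright probe lay between 10.73 (3 mg/kg streptozotocin) and 10.97 (5 μM Aβ), the dim probe between 6.31 (5 μM Aβ) and 6.91 (10 μM Aβ), and the array that was highest by the one was lowest by the other.

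Psenen was the other subunit that was higher on the 5×FAD array. One probe (A_55_P1987770) read 13.12, 13.10, and 13.47 on the NCSTN, MAPT, and 5×FAD arrays and the other (A_55_P1980302) 12.90, 12.91, and 13.27. The NCSTN and MAPT arrays differed by at most 0.02, and 5×FAD lay 0.36 above their mean by both probes, or 1.29-fold by the mean of the probes. The SD of the ratios on the 5×FAD array was 0.53 over all bright probes and 0.35 between bright probes of a gene. Across the ICR arrays the ranges were 0.08 and 0.17 log2 units. In cortex the probes read 13.12, 13.17, 13.44, and 13.23, and 12.97, 13.00, 13.22, and 13.08, highest at 17 months by both.

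On the 5×FAD array, then, 2 of the 4 γ-secretase genes (Aph1a and Psenen) lay above the other transgenic arrays, Psen2 had a ratio of 0.03, Ncstn had one of -0.88, and App, Aplp1, Aplp2, and Bace1 had ratios of -0.11, -0.23, -0.10, and -0.12. Of the 11 family probes 4 were highest on this array, as were 38.1% of all probes, so these counts are close to the share of all probes. The 4 markers of activated microglia had ratios of 2.75 to 9.45 on this array (median 4.81), and the 5 general markers of microglia 0.47 to 2.14 (median 1.31). The 5 neuronal markers had a median of -0.07, with a range of -0.17 to 0.05. Astrocyte markers had a median of 0.43 and ranged from -0.32 (Slc1a2) to 1.79 (Gfap), with 2 of 5 past 2-fold (Gfap and Aqp4, 1.19). Oligodendrocyte markers had a median of 0.43 as well and ranged from -0.26 to 0.67. Choroid plexus markers had a median of 0.58 and ranged from -0.42 to 1.31, with 1 of 5 past 2-fold. Of all probes, 13.8% were past 2-fold on this array. All 5 cortical markers were lower, at -1.23 to -0.32. The 5 hippocampal markers had a median of -0.46, with a range of -0.61 to 0.80. In tissue RNA, more cells of a type and more RNA per cell cannot be told apart, and the part of these markers in the values of Aph1a and Psenen was not tested. The 5×FAD mice were also the youngest of the set, so the model cannot be told apart from age.

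Counted over all 11 probes and 12 arrays, 3 of 132 ratios were past 2-fold, and all 3 belonged to Ncstn, whereas with normexp background correction it was 0 of 132. On the NCSTN array 1 of 11 probes was past 2-fold, against 6.86% of all 36520 probes, and on the MAPT array 1 of 11 against 5.58%. On the array of 2.5 mg/kg streptozotocin it was 1 of 11 against 8.17%. No family probe passed 2-fold on the other 9 arrays. The share of all probes past 2-fold there was 13.8% on the 5×FAD array, 5.67%, 4.22%, 5.55%, and 4.77% in cortex by age, 5.97% and 6.64% with 5 and 10 μM Aβ, 6.11% with 3 mg/kg streptozotocin, and 6.02% with scopolamine. At 1.5-fold, 3 of 11 probes were called on the 5×FAD array (both of Aph1a, and Ncstn, which was lower), against 31.1% of all probes, 2 on the NCSTN array (19.0%), and 1 on the MAPT array (15.7%). With 11 probes, these counts are close to the shares of all probes.

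The median ratio of the 9 genes lay between -0.15 at 1.5 months and 0.14 at 17 months, and it was -0.10 on the 5×FAD array, -0.04 on the NCSTN array, and 0.07 on the MAPT array. Among the ICR arrays it was 0.05 and -0.04 with 5 and 10 μM Aβ, 0.00 and 0.04 with 2.5 and 3 mg/kg streptozotocin, and -0.00 with scopolamine. The medians of all genes on the same arrays lay between -0.05 and 0.03. At 1.5 months, 2 of the 9 genes had a ratio above 0.

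In cortex the array of 17 months differed from the ages on both sides. It was the highest of the 4 for 7 of the 11 probes, those of App, Aplp1, Bace1, Adam10, Ncstn, and both of Psenen, whereas 29.0% of all probes were highest there. It was the lowest for 2 probes, both of Aph1a, against 31.0% of all probes. The ratios of the 7 probes were 0.14 to 0.30 for the bright ones and 0.57 for Ncstn. Different probes of 1 gene disagreed in their ratios on this array by an SD of 0.21 if bright and 0.49 if dim, the largest in cortex. The level at 22 months was back near that at 4 months for App (15.90 and 15.89), Aplp1 (16.12 and 16.20), and Psenen, and the difference between 22 and 1.5 months was at most 0.15 log2 units in size for 10 of the 11 probes, the dim Aph1a probe being 0.28 lower. The choroid plexus markers also separated the array of 17 months, with a mean level of 9.17 against 5.62, 5.65, and 6.36 at 1.5, 4, and 22 months. All 5 oligodendrocyte markers were lower at 17 months (median ratio -0.60). The part of either in the family's values was not tested.

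Doses could be compared within the ICR hippocampus. From 5 to 10 μM Aβ, App was lower by a difference of -0.33, Aplp1 by -0.21, Bace1 by -0.15, and Ncstn by -0.56. The Aph1a probes went opposite ways, at -0.13 for the bright and 0.60 for the dim probe, and Psenen differed by 0.08 and 0.10. The 5 oligodendrocyte markers had a median ratio of 0.34 at 5 μM and -0.56 at 10 μM, and their part in these differences was not tested. From 2.5 to 3 mg/kg streptozotocin the direction was the other way for App (0.15), Bace1 (0.13), and Aplp1 (0.02). Ncstn was lower (-1.51), but it was not well above background at 3 mg/kg, and the size of its difference depended on the processing. The SD of these differences over all bright probes was 0.20 for Aβ and 0.21 for streptozotocin, so for the bright members other than App and Aplp1 each difference was smaller than that SD. Between the mean of the Aβ arrays and the mean of the streptozotocin arrays, Aplp2 was higher by 0.18 with Aβ and the other bright members differed by at most 0.12 in size.

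The sets differ in strain, region, age, treatment, and the sex-linked genes, which cannot be told apart, and levels across them are given as a description. For Aplp2 the cortex arrays lay above all 8 hippocampus arrays, with means of 14.89 in cortex, 14.55 in the transgenic hippocampus, and 14.38 in the ICR hippocampus. For Psen2 the order was the reverse and the 3 sets did not overlap, with means of 10.48, 10.83, and 10.97. Aplp1 was higher in cortex and in the transgenic hippocampus than in the ICR hippocampus (means of 16.20, 16.05, and 15.81), and the bright Aph1a probe was lower in cortex than in the ICR hippocampus. Adam10 was lower in the transgenic than in the ICR hippocampus. In all, 2 of 11 probes did not overlap between cortex and transgenic hippocampus, 4 between cortex and ICR hippocampus, and 3 between the hippocampus sets, whereas 28.8%, 35.2%, and 22.6% of all probes did not. App and Bace1 overlapped between all 3 sets.

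The genes around the pathway were read from lists of other secretase genes, App adaptors, sorting proteins and secretase modulators, and enzymes that degrade Aβ. Their ratios are means over the probes of a gene. The shares of all probes set beside them are over single probes, most of them dim, and so are not a like measure. None of the 9 adaptors, which bind the short inner tail of App, passed 2-fold on any array, where 4.22% to 13.8% of all probes did. Their ratios on the 5×FAD array lay between -0.50 for Dab1, the relay of reelin signalling, and 0.48 for Apbb3. Of the 4 measured genes of other secretases (Aph1b, Bace2, Adam9, and Adam17), none passed 2-fold on the 5×FAD array (13.8% of all probes), where Bace2, the homologue of Bace1, had a ratio of 0.80. On the array of 2.5 mg/kg streptozotocin Bace2 was lower, at 6.69 against 7.60 to 8.75 on the other ICR arrays, a ratio of -1.57.

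Among the 14 sorting proteins and modulators, 1 was at least 2-fold higher and 1 at least 2-fold lower on the 5×FAD array, a share close to the 13.8% of all probes. Gsap, named as an activator of γ-secretase, read 7.76 there against 6.69 and 6.64 on the NCSTN and MAPT arrays, a ratio of 1.09. Gsap was also the one gene of this list past 2-fold in cortex, where it read 7.01 at 22 months and 5.92 to 5.98 at the other ages, a ratio of 1.06. Vps35, the core of the retromer complex that returns App and other cargo from endosomes, read 8.33 on the 5×FAD array against 9.44 and 9.39 on the NCSTN and MAPT arrays, a ratio of -1.08. Both Gsap and Vps35 were read by 1 probe, well above background on all 12 arrays.

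Of the 8 enzymes that degrade Aβ, 3 were at least 2-fold higher and 1 at least 2-fold lower on the 5×FAD array, the largest number of any list of the pathway. The matrix metalloproteinase Mmp2 read 7.38 against 5.86 on the NCSTN and 5.57 on the MAPT array, a ratio of 1.66. The plasminogen activator Plau read 5.72 against 3.93 and 4.78, a ratio of 1.37. Neprilysin (Mme), a main Aβ-degrading enzyme of brain, read 3.19 against 4.53 and 4.73, a ratio of -1.44 at levels near background. The third enzyme that was higher was the endothelin-converting enzyme Ece1, at 1.31, while insulin-degrading enzyme (Ide) had a ratio of 0.14, both chosen after their values were seen. With 13.8% of all probes past 2-fold on this array, and 21.5% of the dim probes with a level like that of Ncstn, 4 of 8 was a larger share, and no test was made of it.

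In the ICR hippocampus 2 of the 8 degrading enzymes, Ace and Mmp2, were low on the arrays where the choroid plexus markers were low. Ace, the angiotensin-converting enzyme, read 9.04 and 9.26 with 5 and 10 μM Aβ and 9.01 with scopolamine, but 6.79 and 7.45 with 2.5 and 3 mg/kg streptozotocin. Mmp2 read 7.96, 7.91, and 7.65 on the former arrays and 5.79 and 6.59 on the latter. The 5 choroid plexus markers averaged 12.48, 12.66, and 12.69 with Aβ and scopolamine and 7.13 and 7.85 with streptozotocin, and their part in the values of Ace and Mmp2 was not tested. Plau was well above background only with 10 μM Aβ among these arrays, where it was at least 2.69-fold higher than the mean of the other 4. In the family, Aplp2 read 14.25 and 14.32 with streptozotocin and 14.40 to 14.51 on the other ICR arrays. Adam10 was higher with streptozotocin, but the levels nearly met, at 12.00 with 3 mg/kg streptozotocin and 11.97 with 10 μM Aβ. The share of all probes that split the arrays in this way was not counted. Among the bright family probes the means of the Aβ and streptozotocin arrays differed by at most 0.18 log2 units.

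**Figure D4:**
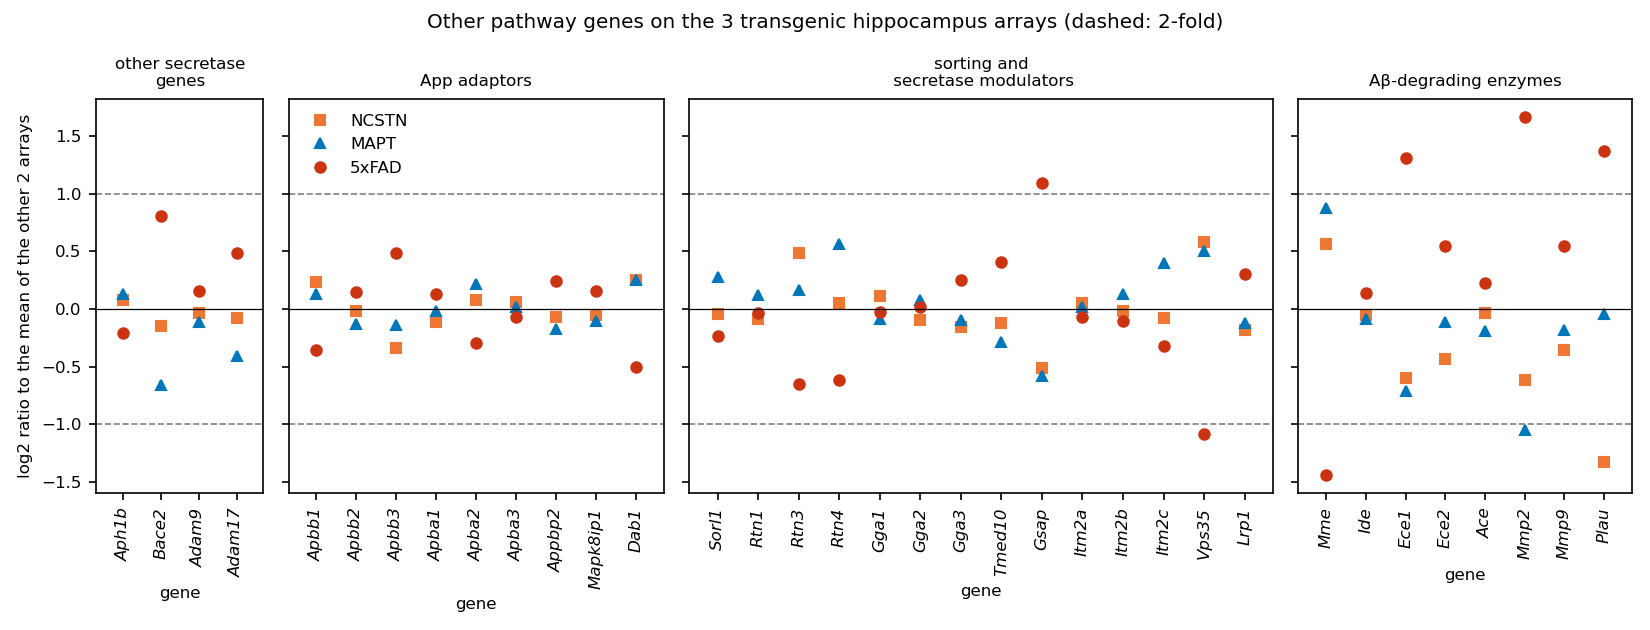
Log2 ratio of the measured genes of 4 lists around the pathway on the NCSTN (squares), MAPT (triangles), and 5×FAD (circles) arrays, each against the mean of the other 2 transgenic arrays, with dashed lines at 2-fold. The adaptors stay between -0.50 and 0.48, and the genes past 2-fold on the 5×FAD array are Gsap, Vps35, and the degrading enzymes Mmp2, Plau, Ece1, and Mme.

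The genes whose pattern was most like that of App were sought among 7485 genes that were well above background on all 12 arrays and had a range of at least 0.5 log2 units in a set. Over the 12 arrays, centred within sets, the 5 closest were Mrps27, a mitochondrial ribosomal protein (Pearson correlation 0.91), Tex2 (0.86), Snhg12 (0.83), Aldh18a1 (0.83), and Rgs16 (0.82). For the mean of the 4 γ-secretase genes, in which Ncstn has the widest range, they were Eaf2 (0.87), Cdh7 (0.84), Pnlip (0.82), Urah (0.81), and Mbd4 (0.81). These are the closest of many genes over few arrays and describe likeness only.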

How the data were processed

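RNA pooled from 3 animals per model was hybridized to 12 one-colour Agilent mouse arrays. The authors deposited the scanner intensity of each spot, not normalized between arrays, with foreground and background medians. A matrix of intensity values that they processed further was deposited too, whose scaling is not given in the sources used here and which was used only as an alternative. Its column medians were 117 (aged, NCSTN, MAPT), 134 (5×FAD), and 157 to 158 (ICR), and the ICR columns lack 599 to 4633 probes. Spots marked as outliers (110 to 234 per array) were left out, spots of a probe were averaged as log2 processed signal, probes at least 1.4-fold over local background on all 12 arrays were kept (36520 of 39429), and quantile normalization followed, as the methods state. Between 63.5% and 75.8% of probes per array were well above background, and precision is limited by the number of arrays. Symbols came from the RefSeq table of GRCm38.p6, matched for 69.8% of probes.

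The members and lists were chosen with earlier results of these data known. Named genes are all members and at most the 3 largest differences of each list in a set. A limit ("at least") sets a level against the higher of the dim probe's own level and the lowest level well above background on that array. No test was made, since each model is 1 array. The normexp correction (limma 3.58.1, offset of 50) used foreground and background medians. The steps were tested on simulated data. Python 3.11.15 with numpy 2.4.6, pandas 2.3.3, and matplotlib 3.10.9, and R 4.3.3 were used.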

Additional observations from a re-analysis of the deposited data

How the results depend on the processing

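The ratios were recomputed with scaling to the 75th percentile, quantile normalization within each set, normexp, no filter, a 2-fold filter, the deposited matrix, the median of the reference arrays, the brightest probe per gene, and each reference array left out in turn. Ncstn depended most on these choices. With normexp its ratio on the NCSTN array was 0.55 and no family probe was past 2-fold (0 of 132, against 3), where an offset of 50 is added to signals of 20.4 to 71.9 intensity units. The count was 9 with a threshold of 1.5-fold and 1 with 3-fold. Over the settings the Ncstn ratio on the NCSTN array stayed between 0.55 and 1.95. On the 5×FAD array it lay between -1.85 and 0.10, the last without the NCSTN array in the reference. On the array of 2.5 mg/kg streptozotocin it lay between 0.39 and 1.26. The ratios on the 5×FAD array kept their sign for Aph1a (0.43 to 0.76), Psenen (0.28 to 0.38), and App (-0.28 to -0.06). The median of the 9 genes on the scopolamine array was -0.19 in the deposited matrix, where the median of all probes was -0.20. No paired analysis was possible because each group is 1 array. Dim signal limits Ncstn and the second Aph1a probe.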
